A study of Mus musculus with 4 samples.

Results

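Collagen genes were taken as the entries of the gene table whose symbol reads Col, a type number, the letter a and a chain number. This rule found 42 of the 21827 entries. It also takes in Col4a3bp, which encodes a ceramide transfer protein named after a type IV collagen chain and is no collagen, so 41 entries were described as collagens. They comprised 10 fibrillar collagens, the 6 type IV chains of basement membranes and 25 other collagens. Col7a1, Col21a1 and Col27a1 were not analysed here. The RNA came from livers of untreated male and female CD-1 mice, an outbred stock, all killed at 8 weeks of age. Each sex was represented by 12 livers in 2 pools of 6 livers, sequenced as strand-specific libraries of poly-A RNA. The table gives 1 level per gene and sex, so the spread between pools is unknown here. Levels, ratios and adjusted p-values are the authors'.

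Collagens are triple-helical proteins of the extracellular matrix. Fibrillar collagens assemble into the tensile fibres of the liver capsule, the portal tracts and the space of Disse, and in liver they are made mainly by hepatic stellate cells and portal fibroblasts. Type IV collagen forms the sheet-like network of basement membranes around vessels and bile ducts and is also present along the sinusoids. The remaining families include fibril-associated collagens (FACITs), beaded filament collagens, transmembrane collagens and the multiplexins, which carry endostatin-like ends.

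Sex differences in liver gene expression are the question of the study. Entries that the authors' scale holds at its lowest value in both sexes have no reads. With that value taken as 1 added read, the depth works out at 11241814 reads in male and 14719686 reads in female liver. Of the 41 collagens, 5 stayed at that floor in both sexes and 3 more left it in 1 sex with the authors' ratio set to 1. The other 33 collagens were compared, among 13763 compared genes in the table. Hepatocyte markers were abundant, with Alb, the albumin gene, at a log2 RPKM of 14.82 in male and 15.52 in female liver.

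Every collagen that passed the threshold was higher in female liver. At an adjusted p under 0.05 by the authors' deposited table, 0 of the 33 compared collagens were higher in male liver and 11 were higher in female liver, or 33.3%. Over all compared genes, 7.21% were called higher in male liver and 10.2% higher in female liver. The 11 collagens were Col3a1, Col1a1, Col1a2, Col5a1, Col5a2 and Col24a1 of the fibrillar group, Col4a1, Col4a3 and Col4a5 of the basement membrane group, and the beaded filament gene Col6a1 and the FACIT gene Col16a1. Their folds by the authors' deposited table ran between 1.35 and 6.33. The authors' own class of sex-biased genes uses an adjusted p under 0.01. At that threshold the counts were 0 in the male and 9 in the female direction, against 4.16% and 6.05% of all compared genes. A log2 RPKM of 1 or more in at least 1 sex is the authors' limit for liver-expressed genes. Of the 8 collagens that reached it, 0 were called in the male and 3 in the female direction at an adjusted p under 0.05. Of all such genes, 8% and 9.19% were called. The table holds no unadjusted p-values, so a count without adjustment cannot be made.

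The groups differed in how many of their members were called. In the fibrillar group 0 of 8 compared genes were called higher in male and 6 in female liver (75%). The log2 ratios (male over female) of the group had a median of -1.04. In the basement membrane group 0 of 6 were called higher in male and 3 in female liver (50%), and the median was -0.39. Among the 19 other compared collagens 0 were called higher in male and 2 in female liver (10.5%), and the median was 0.01. The female-higher share of these other collagens was thus near the 10.2% of all compared genes, of which 7.21% were male-higher. The median over all compared genes was -0.02. Genes of a group are not replicates, so the difference between groups was described and not tested.

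**Figure D1:**
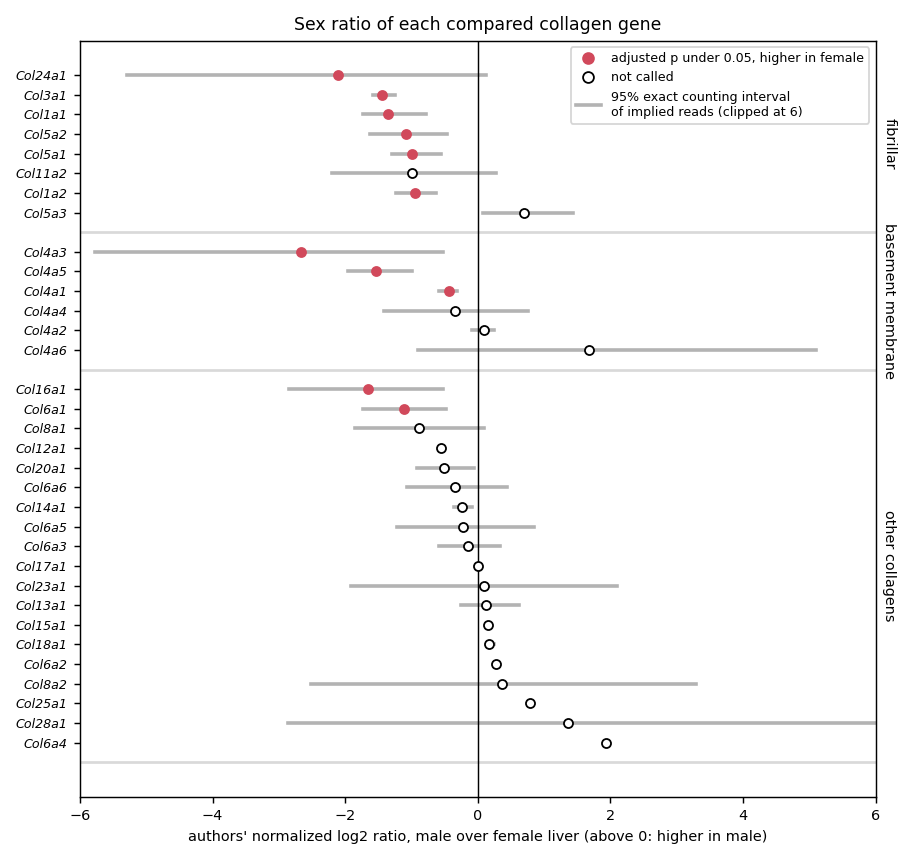
The horizontal axis gives the normalized log2 ratio (male over female) from the authors for each of the 33 compared collagens, with 95% exact counting intervals of implied reads as grey bars where a transcript length was available. Filled points are genes at an adjusted p under 0.05, and all 11 lie on the female side of 0, with 6 of the 8 fibrillar genes among them.

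Col3a1 encodes the single chain of type III collagen, the reticular fibre collagen of soft organs (1, 45368383 to 45406551, plus strand, mm9). It had 6.08 RPKM in male and 16.2 RPKM in female liver, the highest level of the fibrillar genes in both sexes. In the authors' deposited table it was 2.73-fold higher in female liver (adjusted p = 2.77e-12, normalized log2 ratio -1.45). The implied reads were 380 in male and 1328 in female liver, and counting error alone allowed a fold between 2.38 and 3.0 (95% Clopper-Pearson limits on the read ratio, exact, as for all intervals given here). Such an interval leaves out differences between mice and pools.

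The chains of type I collagen, the main tensile fibre protein, were also higher in female liver. Col1a1 (11, 94797584 to 94813170, plus strand, mm9) had 0.775 RPKM in male and 1.82 RPKM in female liver, a 2.56-fold difference by the authors' deposited table (adjusted p = 1.22e-05). Col1a2 (6, 4455697 to 4491543, plus strand, mm9) had 2.26 RPKM in male and 4.28 RPKM in female liver and was 1.93-fold higher in female liver by the authors' deposited table (adjusted p = 9.31e-05). The counting intervals of the folds were 1.72 to 3.31 for Col1a1 and 1.55 to 2.34 for Col1a2, so that the folds of these chains overlap within counting error. Per length, Col1a2 stood 2.92 times above Col1a1 in male and 2.35 times in female liver.

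Promoter sequences of the fibrillar genes with the highest levels, Col3a1 and Col1a2, are shown because these members differed in the same direction. They are the 250 bases before the RefSeq start in GRCm38.p6, a build other than that of the gene table, at chr1:45311288-45311537 (plus strand) for Col3a1 and chr6:4505368-4505617 (plus strand) for Col1a2. Capitals mark matches on either strand to any of 4 motifs searched, namely the TATA box core TATAAA, the CCAAT box, the GC box core GGGCGG and the STAT-type palindrome TTCNNNGAA, which reads the same on both strands.
Col3a1: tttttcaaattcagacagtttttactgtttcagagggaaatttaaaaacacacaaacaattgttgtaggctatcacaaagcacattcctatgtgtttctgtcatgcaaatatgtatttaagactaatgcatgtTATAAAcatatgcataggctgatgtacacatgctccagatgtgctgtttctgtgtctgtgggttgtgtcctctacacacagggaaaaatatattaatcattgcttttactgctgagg
Col1a2: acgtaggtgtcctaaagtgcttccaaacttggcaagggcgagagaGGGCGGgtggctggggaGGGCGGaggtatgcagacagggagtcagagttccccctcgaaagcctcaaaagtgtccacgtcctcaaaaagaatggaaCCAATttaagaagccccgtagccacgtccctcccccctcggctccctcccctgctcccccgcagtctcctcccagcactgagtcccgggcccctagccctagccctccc
Col3a1 held TATAAA, 112 to 117 bases before its start, and none of the other motifs. Col1a2 held CCAAT, 105 to 109 bases before its start, and a pair of GGGCGG matches farther out. Among 32851 promoters of the same length, 12.4% held TATAAA, 33.8% CCAAT, 32.7% GGGCGG and 7.02% TTCNNNGAA. The table matched 33 of the 41 collagens with 36 promoters, of which 5 held TATAAA, 12 CCAAT, 20 GGGCGG and 2 TTCNNNGAA.

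Type V collagen, a minor fibrillar collagen that is built into type I fibrils and sets their diameter, had both called and uncalled chains. Col5a1 (2, 27741945 to 27895030, plus strand, mm9) had 0.92 RPKM in male and 1.74 RPKM in female liver and was 2.00-fold higher in female liver by the authors' deposited table (adjusted p = 0.000162). Col5a2, the tail-to-tail neighbour of Col3a1 at a distance of 24624 bases on chromosome 1, had 0.511 RPKM in male and 1.03 RPKM in female liver, a 2.11-fold difference (adjusted p = 0.00134, authors' deposited table). The third chain, Col5a3, had 0.672 RPKM in male and 0.402 RPKM in female liver, and its ratio, 1.63 in the male direction by the authors' deposited table, did not pass the threshold (adjusted p = 0.117). It was the single compared fibrillar gene with a positive log2 ratio, and its counting interval ran between 1.06 and 2.70.

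The remaining fibrillar genes were scarce. Col24a1, a minor fibrillar chain, had 0.0374 RPKM in male and 0.114 RPKM in female liver, which corresponds to 2 and 11 implied reads, and was 4.32-fold higher in female liver by the authors' deposited table (adjusted p = 0.0433). Its counting interval ran between 0.917 and 39.0 and thus held a ratio of 1. Col11a2, a chain of the cartilage collagen type XI, had 0.143 RPKM in male and 0.254 RPKM in female liver, a 1.99-fold female excess that did not pass (adjusted p = 0.0542, authors' deposited table). Col2a1, the main collagen of cartilage, stayed at the floor in both sexes. Col11a1 had 2 implied reads in male and 0 in female liver, too few for a ratio.

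**Figure D2:**
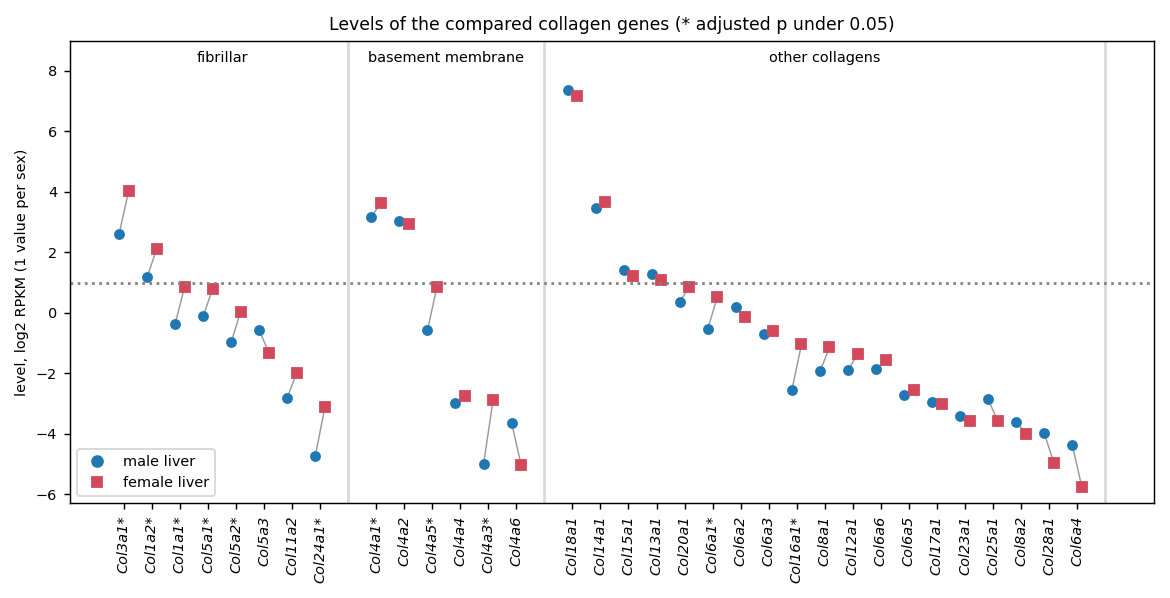
The vertical axis gives the level of each compared collagen as log2 RPKM, with male liver as circles and female liver as squares, 1 value per sex, and a dotted line at a log2 RPKM of 1. Asterisks mark genes at an adjusted p under 0.05, which sit mostly below that line, whereas Col18a1 stands far above the other collagens at 7.38 in male and 7.18 in female liver.

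The type IV chains form 3 gene pairs that lie head to head, and in each pair 1 member was called and the other was not, a difference within pairs that was not itself tested. Col4a1 and Col4a2 encode the chains of the ubiquitous basement membrane network and lie 2 bases apart on chromosome 8 (Col4a1 at 11198423 to 11312826, minus strand, and Col4a2 at 11312829 to 11449287, plus strand, mm9). Col4a1 had 9.04 RPKM in male and 12.3 RPKM in female liver and was 1.35-fold higher in female liver by the authors' deposited table (adjusted p = 0.0332). Col4a2 had 8.12 RPKM in male and 7.69 RPKM in female liver and was not called (1.06-fold in the male direction, adjusted p = 0.661, authors' deposited table). The counting intervals of the female-over-male fold of Col4a1, 1.24 to 1.5, and of the male-over-female fold of Col4a2, 0.946 to 1.18, do not overlap when set on 1 scale. Per length, Col4a1 stood at 1.11 times the level of Col4a2 in male and 1.61 times in female liver.

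Col4a5 and Col4a6 encode chains that occur in the basement membranes of kidney, lung and smooth muscle, and they lie 1342 bases apart on the X chromosome. Col4a5 (X, 137909962 to 138123778, plus strand, mm9) had 0.671 RPKM in male and 1.82 RPKM in female liver, a 2.88-fold difference by the authors' deposited table (adjusted p = 1.89e-07). Its implied reads were 48 in male and 174 in female liver, with a counting interval of the fold between 2.00 and 3.90. Col4a6 (X, 137599946 to 137908619, minus strand, mm9) had 0.0802 RPKM in male and 0.0306 RPKM in female liver, or 5 and 2 implied reads. Its ratio of 3.20 in the male direction was not called (adjusted p = 0.46, authors' deposited table), and counting alone allowed anything between 0.536 and 34.4.

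The promoters of this pair are shown because neighbouring starts carried unequal results. The windows lie at chrX:141475169-141475418 (plus strand) for Col4a5 and chrX:141474077-141474326 (minus strand) for Col4a6, again as the 250 bases before the RefSeq start in GRCm38.p6, with motif matches on either strand in capitals.
Col4a5: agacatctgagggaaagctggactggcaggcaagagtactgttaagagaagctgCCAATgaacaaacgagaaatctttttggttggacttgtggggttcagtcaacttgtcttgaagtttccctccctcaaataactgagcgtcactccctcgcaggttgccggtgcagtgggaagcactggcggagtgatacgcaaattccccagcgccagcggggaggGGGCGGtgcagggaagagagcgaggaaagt
Col4a6: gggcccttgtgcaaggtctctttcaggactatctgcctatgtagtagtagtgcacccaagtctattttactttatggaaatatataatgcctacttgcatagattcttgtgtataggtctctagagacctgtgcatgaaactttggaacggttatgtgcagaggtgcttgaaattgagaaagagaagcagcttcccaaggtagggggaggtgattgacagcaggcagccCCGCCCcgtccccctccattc
Col4a5 held CCAAT, 192 to 196 bases before its start, and GGGCGG, 25 to 30 bases before it. Col4a6 held GGGCGG on the opposite strand, 16 to 21 bases before its start. Neither held TATAAA or TTCNNNGAA.

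Col4a3 and Col4a4, the partner chains of Col4a5 in the kidney's glomerular basement membrane, lie 71 bases apart on chromosome 1 and were near the detection limit. Col4a3 (1, 82583496 to 82718634, plus strand, mm9) had 0.031 RPKM in male and 0.134 RPKM in female liver, or 2 and 16 implied reads. The fold of 6.33 in the female direction by the authors' deposited table was the highest of all called collagens (adjusted p = 0.0098), but the counting interval ran between 1.44 and 54.8. Col4a4 had 0.125 RPKM in male and 0.148 RPKM in female liver and was not called (adjusted p = 0.577, authors' deposited table).

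Outside these groups, only Col6a1 and Col16a1 of 19 compared genes passed the threshold, or 10.5% beside 10.2% of all compared genes called female-higher. Col6a1, a chain of the beaded microfibrils that surround cells (10, 76171537 to 76188789, minus strand, mm9), had 0.693 RPKM in male and 1.43 RPKM in female liver, a 2.16-fold difference by the authors' deposited table (adjusted p = 0.00335). Its partner chain Col6a2, a same-strand neighbour 85464 bases away, had 1.15 RPKM in male and 0.913 RPKM in female liver (adjusted p = 0.582, authors' deposited table). The long chain Col6a3 had 0.616 RPKM in male and 0.665 RPKM in female liver and was not called either (adjusted p = 0.634, authors' deposited table). Col16a1, a FACIT gene (4, 129725084 to 129776521, plus strand, mm9), had 0.171 RPKM in male and 0.482 RPKM in female liver and was 3.15-fold higher in female liver by the authors' deposited table (adjusted p = 0.00159, 9 implied reads in male and 36 in female liver).

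The abundant collagens of this group were not called. Col18a1 encodes the multiplexin that releases endostatin and is known to be expressed by hepatocytes (10, 76514924 to 76629275, minus strand, mm9). It had 167 RPKM in male and 145 RPKM in female liver, above 98.4% of all genes with a level in male and 98.2% in female liver. Its ratio was 1.13 in the male direction by the authors' deposited table (adjusted p = 0.35), with 9513 implied reads in male and 10806 in female liver. Col14a1, a FACIT that binds the surface of type I fibrils, had 10.9 RPKM in male and 12.7 RPKM in female liver (adjusted p = 0.237, authors' deposited table). Col15a1, a multiplexin known from portal fibroblasts, had 2.63 RPKM in male and 2.34 RPKM in female liver (adjusted p = 0.54, authors' deposited table). Col13a1, a transmembrane collagen of cell contacts with matrix, had 2.42 RPKM in male and 2.13 RPKM in female liver (adjusted p = 0.769, authors' deposited table). A p above the threshold does not show that the sexes were alike, and the counting intervals of Col18a1, 1.12 to 1.19 in the male direction, and of Col14a1, 1.06 to 1.28 in the female direction, left out 1. So did that of Col20a1, a scarce FACIT gene that was not called, at 1.04 to 1.89 in the female direction.

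A further 17 compared collagens were below a log2 RPKM of 1 in both sexes and not called, counting Col5a3, Col11a2, Col4a4, Col4a6, Col6a2 and Col6a3. Their log2 RPKM lay between -4.38 and 0.37 in male and between -5.76 and 0.85 in female liver, and their log2 ratios between -0.99 and 1.94, with 9 on the male and 8 on the female side. The others among them were the FACIT genes Col12a1 and Col20a1, the beaded filament genes Col6a4, Col6a5 and Col6a6, the short-chain genes Col8a1 and Col8a2, the transmembrane genes Col17a1, Col23a1 and Col25a1, and Col28a1. At the floor in both sexes were Col9a1, Col9a2, Col19a1, Col22a1 and Col2a1, and in male liver alone Col9a3 and Col10a1. Col4a3bp, the entry that is no collagen, had 12.8 RPKM in male and 13.0 RPKM in female liver (adjusted p = 0.896, authors' deposited table).

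Summed over genes, the fibrillar group had the highest female-to-male ratio of the collagen groups. Their summed level was 11.5 RPKM in male and 25.9 RPKM in female liver, 2.26 times as high in female liver. Col3a1 alone made up most of it, at 6.08 RPKM in male and 16.2 RPKM in female liver. The type IV chains summed to 18.1 RPKM in male and 22.2 RPKM in female liver, 1.23 times as high in female liver. The other collagens without Col18a1 summed to 21.6 RPKM in male and 24.6 RPKM in female liver. All collagens together came to 218 RPKM in both sexes, of which Col18a1 made up 76.6% in male and 66.6% in female liver. Leaving Col18a1 out, the fibrillar genes made up 22.4% of the collagen level in male and 35.6% in female liver, and the type IV chains 35.4% in male and 30.5% in female liver. Col3a1 ranked by level in male liver after Col18a1, Col14a1, Col4a1 and Col4a2, and directly after Col18a1 in female liver. Sums have 1 value per sex and were not tested.

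**Figure D3:**
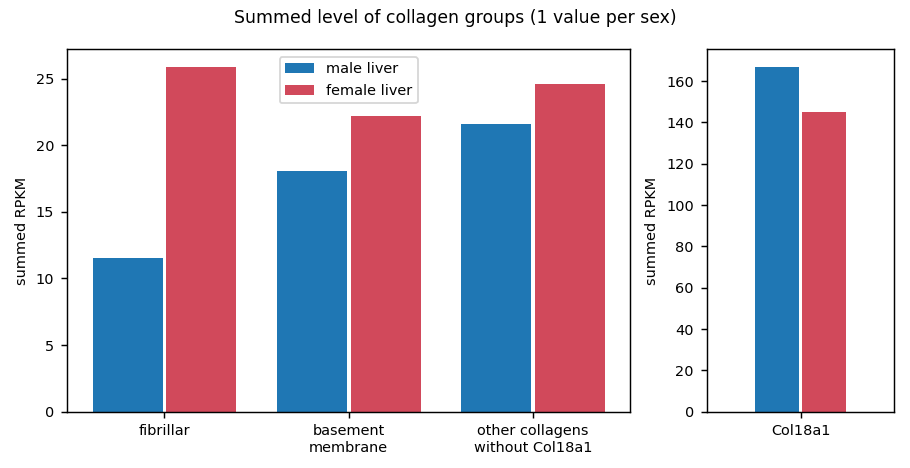
Bars give the summed RPKM of each collagen group in male (left bar) and female liver (right bar), with Col18a1 on an axis of its own because of its level. Fibrillar genes stand at 11.5 RPKM in male and 25.9 RPKM in female liver, and Col18a1 at 167 RPKM in male and 145 RPKM in female liver.

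Genes that modify, cut, crosslink and secrete procollagen were read against the 7.21% of all compared genes called higher in male and the 10.2% called higher in female liver. Of 15 compared genes for chain modification and folding, 1 was called higher in male liver (6.67%) and 2 in female liver (13.3%), shares near those of all genes (median log2 ratio -0.10). P4ha2, a catalytic subunit of prolyl 4-hydroxylase, had a log2 RPKM of 1.80 in male and 0.93 in female liver and was 1.88-fold higher in male liver by the authors' deposited table (adjusted p = 0.0037). Crtap, a partner of prolyl 3-hydroxylase, was 1.79-fold higher (adjusted p = 0.00688) and Serpinh1, the procollagen chaperone HSP47, 1.62-fold higher in female liver (adjusted p = 0.00837) by the authors' deposited table. Adamts2, the enzyme that removes the amino-terminal propeptide of fibrillar procollagens, had a log2 RPKM of -1.49 in male and 0.90 in female liver. It was 5.62-fold higher in female liver by the authors' deposited table (adjusted p = 2.81e-09), and it was the only one called of 6 compared genes for propeptide cleavage. Bmp1, the carboxy-terminal proteinase (adjusted p = 0.167), and Pcolce, its enhancer (adjusted p = 0.0674), did not pass by the authors' deposited table. Of 5 compared lysyl oxidase genes, which crosslink collagen, 0 were called higher in male and 1 in female liver, Loxl2 by 1.52-fold (adjusted p = 0.0275, authors' deposited table), while Loxl3 (adjusted p = 0.895) and Loxl1 (adjusted p = 0.191) were not called. For the secretion of procollagen, 2 of 6 compared genes were called higher in male and 0 in female liver. These were Mia2 (1.37-fold, adjusted p = 0.0222), a cargo factor, and Sec24d (1.36-fold, adjusted p = 0.0244), a coat subunit of transport vesicles, by the authors' deposited table. Neither passed the authors' own threshold of 0.01.

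Of 8 compared genes for proteins that bind collagen fibrils, 0 were called higher in male and 5 in female liver, or 62.5% against 10.2% of all compared genes, and the median log2 ratio was -0.57. Tnxb, a tenascin, had a log2 ratio of 0.42, and Ogn of -0.51 and Fn1, fibronectin, of -0.20, and these 3 were not called. Sparc, a collagen-binding matricellular protein, had a log2 RPKM of 5.71 in male and 6.67 in female liver and was 1.95-fold higher in female liver by the authors' deposited table (adjusted p = 5.61e-07). The small leucine-rich proteoglycan genes Fmod (2.62-fold, adjusted p = 0.0143), Lum (1.75-fold, adjusted p = 0.00067) and Bgn (1.55-fold, adjusted p = 0.00159) were more abundant in female liver by the authors' deposited table, and Dcn was the fifth called member. Partners of type IV collagen in basement membranes counted 1 gene called higher in male liver (6.67%) and 2 in female liver (13.3%) among 15, near the 7.21% and 10.2% of all compared genes (median log2 ratio -0.15). Lama3, a laminin alpha chain, had 1.33 RPKM in male and 0.105 RPKM in female liver. By the authors' deposited table it was 13.7-fold higher in male liver (adjusted p = 9.9e-24). Lama1, another alpha chain (1.59-fold, adjusted p = 0.0174), and Nid1, which links laminin to type IV collagen (1.57-fold, adjusted p = 0.00247), were more abundant in female liver by the authors' deposited table. Of 7 compared collagen receptors, 1 was called higher in male liver (14.3%) and 1 in female liver (14.3%). Itga10, an integrin chain best known from cartilage, had 0.582 RPKM in male and 0.121 RPKM in female liver. By the authors' deposited table it was 5.0-fold higher in male liver (adjusted p = 0.000124). Lair1, an inhibitory receptor of leukocytes, was 2.08-fold higher in female liver (adjusted p = 0.0295, authors' deposited table). Both genes lay below a log2 RPKM of 1 in both sexes.

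Markers of the cell types that make collagens are given beside the 7.21% of all compared genes called higher in male and the 10.2% called higher in female liver. Of 10 compared hepatic stellate cell markers, 0 were called higher in male and 3 in female liver, and none lay at the floor. The 3 were Pdgfrb, a growth factor receptor (1.81-fold, adjusted p = 0.00144), Lrat, the retinol-storing enzyme (1.78-fold, adjusted p = 8.34e-05), and Ecm1 (1.54-fold, adjusted p = 0.00238) by the authors' deposited table, and the list summed to 81.5 RPKM in male and 102 RPKM in female liver. The other 7 were not called, among them Des on the male side (log2 ratio 0.45) and Reln (-0.15) and Rgs5 (-0.13) near 0. The median log2 ratio of the list was -0.27. Of 6 compared portal fibroblast markers, Thy1, which T cells also express, was 4.80-fold higher in male liver (adjusted p = 0.0098), and Eln, the elastin gene (4.63-fold, adjusted p = 8.02e-05), and Fbln2 (2.55-fold, adjusted p = 0.00732) were more abundant in female liver by the authors' deposited table. That list summed to 3.27 RPKM in male and 5.68 RPKM in female liver, and Gli1 lay at the floor in male liver. Among 4 compared myofibroblast markers, Postn, the periostin gene, was 2.22-fold higher in female liver by the authors' deposited table (adjusted p = 4.94e-06), whereas Tagln (adjusted p = 0.453) and Acta2, smooth muscle actin (adjusted p = 0.773), were not called. The myofibroblast list summed to 7.70 RPKM in male and 11.2 RPKM in female liver, with Timp1 at the floor in female liver. In RNA of whole liver, fewer cells of a type and less RNA per cell cannot be told apart, and the part of these cell types in the collagen differences was not tested.

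Markers of the other cell types are given beside the same shares of all compared genes, 7.21% called higher in male and 10.2% in female liver. Of 6 Kupffer cell markers, 0 were called higher in male and 4 in female liver, Marco by 3.21-fold (adjusted p = 1.11e-07), Timd4 by 1.43-fold (adjusted p = 0.0247), Vsig4 by 1.38-fold (adjusted p = 0.0294) and Clec4f by 1.33-fold (adjusted p = 0.0346) by the authors' deposited table, and summed to 139 RPKM in male and 177 RPKM in female liver. Mesothelial markers, which mark the cells of the capsule surface, counted 0 called higher in male and 2 called higher in female liver among 4, Wt1 (6.61-fold, adjusted p = 0.0098) and Upk3b (3.20-fold, adjusted p = 0.0143) by the authors' deposited table, with sums of 1.32 RPKM in male and 2.28 RPKM in female liver. Wt1 was scarce, at 0.0863 RPKM in male and 0.395 RPKM in female liver. Msln (log2 ratio 0.54) and Gpm6a (log2 ratio -0.34) were not called. Of 8 sinusoidal endothelial markers, Pecam1 alone was called, 1.49-fold higher in female liver by the authors' deposited table (adjusted p = 0.00934), and Clec4g (adjusted p = 0.278) and Fcgr2b (adjusted p = 0.687) were not. The endothelial list summed to 145 RPKM in male and 160 RPKM in female liver. Of 5 cholangiocyte markers, Spp1, osteopontin, was 1.73-fold higher in male liver (adjusted p = 9.76e-05) and Sox9 1.92-fold higher in female liver (adjusted p = 0.00123) by the authors' deposited table, with sums of 46.5 RPKM in male and 31.5 RPKM in female liver. Spp1 alone made up 43.9 RPKM of the sum in male and 27.9 RPKM in female liver, and the median log2 ratio of the list was -0.23. Of 6 hepatocyte markers, Apoa1 was 1.49-fold higher in male (adjusted p = 0.00214) and Alb 1.62-fold higher in female liver (adjusted p = 0.000181) by the authors' deposited table, with sums of 42500 RPKM in male and 58900 RPKM in female liver. Most of these sums came from Alb, at 29000 RPKM in male and 46900 RPKM in female liver, and the median log2 ratio of the list was -0.20. None of these other markers lay at the floor, and their part in the collagen differences was not tested.

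**Figure D4:**
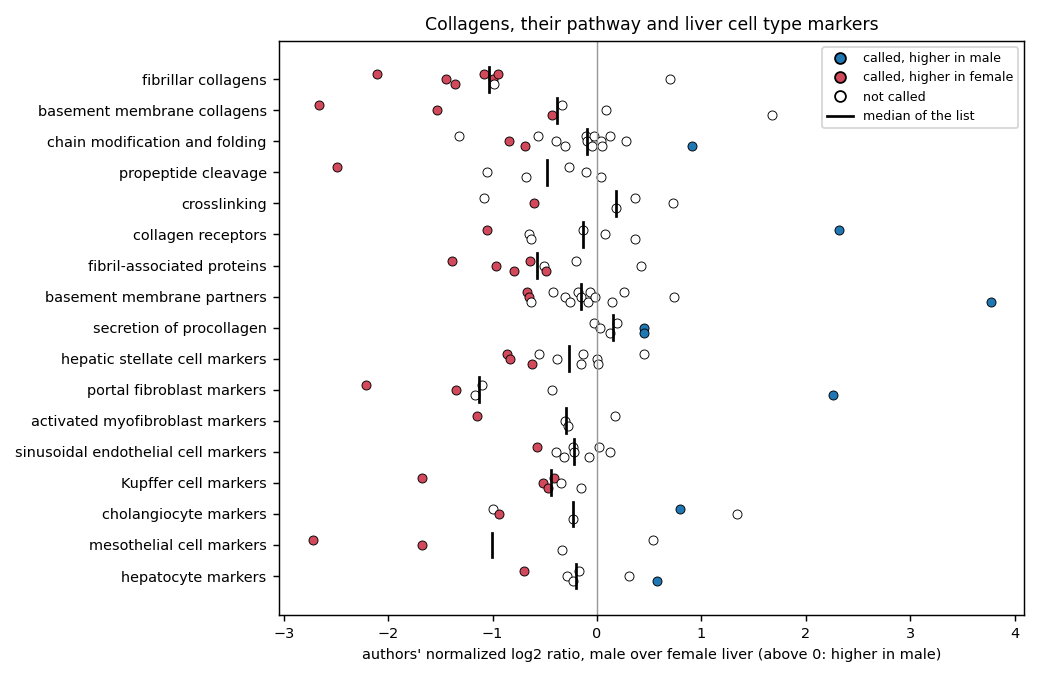
Each point is a compared gene placed by the normalized log2 ratio (male over female) from the authors, filled where the adjusted p was under 0.05, with a black bar for the median of each list. Medians were -1.04 for fibrillar collagens, -0.57 for fibril-associated proteins and -0.20 for hepatocyte markers. Those of portal fibroblast markers (-1.14) and mesothelial markers (-1.01) lay about as far on the female side as that of fibrillar collagens. Kupffer cell markers had -0.44 and hepatic stellate cell markers -0.27, whereas the medians of crosslinking (0.18) and secretion genes (0.15) lay on the male side. The only called crosslinking gene, Loxl2, lay on the female side.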

How the data were processed

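Levels are log2 RPKM values in a single table that the authors deposited, 1 per gene and sex. The normalized log2 ratio, the linear ratio, the signed fold (a score, negative where female liver is higher) and the adjusted p-value are the authors' own, per the file headers. The submitters' processing notes name Bowtie and edgeR as tools and mm9 as the build, with no version. The combination of pools, the adjustment of p-values and any use of strand in counting are not given in the sources used here.

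Genes at the floor in both sexes share an adjusted p of 0.026 that was not used, nor were p-values of genes that left the floor in 1 sex with a ratio of 1. Other genes were called at an adjusted p under 0.05 with the sign of the authors' ratio. The authors' own class of sex-biased genes uses an adjusted p under 0.01, so some genes called here are not in that class. No test was computed here, since no value per pool is given. Linear RPKM values are powers of 2 of the deposited log2 levels. Implied reads take the floor as 1 read, a depth from 1058 olfactory receptor genes at the floor, and transcript lengths of GENCODE vM21 by accession, which 34 of the 42 entries had. The lengths implied for 4668 floor genes matched within 2% for 74.2%, and of 19 entries under 50 reads 12 gave whole reads in both sexes within 0.1 read, so reads are approximate. Intervals cover counting error alone and are scaled by implied depth, not by the authors' normalization. In lists, 7 members were matched through older symbols and 3 were not found. Called members were named, up to 4 with values, and up to 2 abundant members where fewer than 2 were called. Members and lists were chosen with earlier results of these data known. Python 3.11.15, SciPy 1.17.1 and pandas 2.3.3 were used. The read recovery was run on simulated data built with the same depths, lengths and added read, so that run cannot test these assumptions. Alternatives were a stricter p, a filter on low levels, plain differences, a minimum fold, counting intervals, another grouping and sums.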

Additional observations from a re-analysis of the deposited data

How the results depend on the processing

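Over the collagens, 0 male-higher and 11 female-higher genes were called. At an adjusted p under 0.01 the female-higher count was 9, without Col24a1 and Col4a1, at a minimum of 1.5-fold it was 10, without Col4a1, and it was also 10 when the counting interval had to leave out 1, without Col24a1. The male-higher count was 0 under each of these, which was fixed beforehand because each setting only removes genes already called. Among uncalled collagens, the counting intervals of Col5a3 and Col18a1 left out 1 in the male direction. Those of Col14a1 and Col20a1 did so in the female direction. Among genes that reached a log2 RPKM of 1 in any sex, the female-higher counts were 3 for all collagens, 2 for fibrillar, 1 for basement membrane and 0 for other collagens, since 8 collagens remained to be compared. With that filter the medians of the log2 ratio were -0.08 for all collagens, -1.20 for fibrillar, -0.17 for basement membrane and 0.14 for other collagens. The fibrillar median then rested on Col3a1 and Col1a2 alone, and the basement membrane median on Col4a1 and Col4a2 alone. Without the filter, the medians of the plain difference of log2 RPKM were -0.24, -0.96, -0.34 and 0.07, in the same order of groups. By the authors' ratio they were -0.34, -1.04, -0.39 and 0.01. The log2 ratio of summed RPKM was 0.01 for all collagens, -1.18 for fibrillar, -0.29 for basement membrane and 0.16 for other collagens. The sign for all collagens thus turned with the sum, in which Col18a1 makes up most of the level. With the multiplexins counted as basement membrane collagens, the medians were -0.13 for that group and -0.15 for the other collagens, whose sign turned. Over all compared genes, 7.21% were male-higher and 10.2% female-higher, 4.16% and 6.05% at an adjusted p under 0.01, and 8% and 9.19% with the filter on level. Of 62 compared genes in the pathway lists, 5 were male-higher (8.06%) and 12 female-higher (19.4%). These counts were 3 and 7 at an adjusted p under 0.01, and 3 and 8 with the filter on level. Of 49 compared genes in the marker lists, 3 were male-higher (6.12%) and 15 female-higher (30.6%). Their counts were 3 and 11 at an adjusted p under 0.01, and 2 and 11 with the filter on level. The female-higher count of Kupffer cell markers was 1 in place of 4 at an adjusted p under 0.01, and those of portal fibroblast and mesothelial markers were 0 in place of 2 with the filter on level. No pool could be left out, because the table gives 1 value per sex. No paired analysis was possible because the pools are not separated and the labels carry no number that pairs them. Depth limits the genes with few implied reads, such as Col24a1, Col4a3 and Col4a6.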

Other observations

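Col9a3 was at the floor in male liver and had 0.271 RPKM in female liver, and Col10a1, a collagen of growth cartilage, had 0 implied reads in male and 2 in female liver. Emid2, an older symbol of Col26a1 that the symbol rule does not take in, had a log2 RPKM of -2.63 in male and -2.54 in female liver and was not called in the authors' deposited table (adjusted p = 0.731).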
